A study of Homo sapiens with 4 samples.

Results

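HOXB13 peaks at genes taken as markers of luminal and basal prostate cells came from 2 deposited peak lists of LNCaP cells. One list was for cells labelled GSK2879552 and one for cells labelled vehicle. The genes were KRT8, KRT18 and KRT19 (luminal) and KRT5, KRT14 and TP63 (basal). This grouping was set beforehand, and how strictly each gene keeps to 1 cell type was not checked. A peak was a member when its summit lay within 50 kb of one of these genes in the hg19 build. KRT8 and KRT18 are neighbours and were taken as 1 span, which leaves 5 loci. A summit in reach of both KRT19 and KRT14 went to the nearer gene. The GSK2879552 list held 22 such peaks of 68049 on chromosomes 1 to 22, X and Y, and the vehicle list held 0 of 3507. Of the 22 peaks, 8 lay at luminal and 14 at basal genes.

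LNCaP is an established cell line from a prostate cancer metastasis, responsive to androgen and of luminal character, and HOXB13 is a homeodomain protein that binds DNA in prostate epithelium. GSK2879552 inhibits the histone demethylase LSD1 (KDM1A) and was given at 50 µM for 4 hours in RPMI1640 with 5% CSS. The treatment text is the same for all 4 samples, so the vehicle group rests on titles and descriptions, and no dose or time is given for it apart from that text. Each treatment was 1 library run on 2 lanes, which the labels call technical replicates, and its lanes share 1 peak list. No value below therefore has an error between cultures, and no difference between the treatments or between luminal and basal genes was tested. The lists hold no expression values, so the luminal character of the cells was not checked.

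Simple epithelial cells such as luminal cells build their intermediate filaments from pairs of one type II and one type I keratin, KRT8 with KRT18. KRT19 is a further type I keratin of simple epithelia. Basal cells pair KRT5 with KRT14 instead and express TP63 (p63), a transcription factor of the p53 family that is needed to form basal cells of stratified and glandular epithelia. The type II keratin genes lie together on chromosome 12 and the type I genes on chromosome 17, so a window of 50 kb around a keratin gene also reaches other keratin genes. In the RefSeq gene order, the nearest protein-coding neighbours are KRT6A and KRT71 for KRT5, KRT15 and KRT9 for KRT19, KRT9 and KRT16 for KRT14, KRT78 and EIF4B for the KRT8 and KRT18 pair, and TPRG1 and P3H2 for TP63. A peak near a gene is a position and not evidence that the gene is its target. Exons and introns of the hg19 build were not used here.

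The sequences just before the starts of TP63 and KRT5 are shown because these are basal genes whose start positions could be set against the peaks. They are the 250 bases before the gene start from RefSeq (GRCh38.p14), read in the direction of transcription, TP63 at chr3:189631139-189631388 on the plus strand and KRT5 at chr12:52520395-52520644 on the minus strand. For TP63 this is the start of the whole gene and not its internal start, which is described below. Capitals mark ATAAA, which is the end of the HOXB13 motif CAATAAA, or its reverse complement TTTAT. The whole motif is in neither sequence, so the capitals do not mark a full HOXB13 motif.
TP63: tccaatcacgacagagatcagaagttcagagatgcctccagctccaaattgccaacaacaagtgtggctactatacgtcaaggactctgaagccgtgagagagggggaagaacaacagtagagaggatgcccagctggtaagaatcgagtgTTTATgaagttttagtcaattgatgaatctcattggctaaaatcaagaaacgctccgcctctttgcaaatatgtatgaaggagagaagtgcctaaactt
KRT5: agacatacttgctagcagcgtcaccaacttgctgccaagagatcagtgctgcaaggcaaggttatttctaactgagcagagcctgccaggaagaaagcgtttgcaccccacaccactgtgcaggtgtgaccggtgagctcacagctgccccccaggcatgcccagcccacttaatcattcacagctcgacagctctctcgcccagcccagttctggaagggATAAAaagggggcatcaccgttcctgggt

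The table held 3 of the 6 genes, KRT8, KRT5 and TP63. Neither HOXB13 motif searched, CAATAAA or TCGTAAA on either strand, was in the 250 bases of any of the 3. One or both were in 4.08% of the 35116 promoter windows of that length. The shorter ATAAA, added after the sequences had been seen, began 29 bases before the start of KRT5, and its reverse complement began 99 bases before the start of TP63. It was in 32.7% of all windows and was not found in that of KRT8, at chr12:52926470-52926719 on the minus strand. Other starts of the 3 genes were not searched. These matches describe the letters in the windows and are not evidence of HOXB13 sites. Whether the letters at KRT5 and TP63 belong to another element of the promoter was not examined.

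HOXB13 peaks were found at each of the 5 loci in the GSK2879552 list, at close to the density of that list as a whole. The 22 peaks lay in 790.7 kb of window, or 27.8 peaks per Mb, against 23.7 per Mb over the genome without its long peak-free intervals. KRT19 had the most peaks for its length, 5 in 81.7 kb (61.2 per Mb). TP63 had 11 in 365.9 kb (30.1 per Mb), KRT8 and KRT18 had 3 in 155.7 kb (19.3 per Mb), KRT5 had 2 in 105.9 kb (18.9 per Mb) and KRT14 had 1 in 81.6 kb (12.3 per Mb). KRT19 and KRT14 share the stretch between them, which was divided midway.

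Set against consecutive windows of the same length along the genome, the KRT19 window stood high and the others stood near the middle. At least 5 peaks were held by 8.72% of windows as long as that of KRT19. At least 11 were held by 34.7% of windows as long as that of TP63, where the median was 8. At least 3 were held by 61.5% of windows the length of the KRT8 and KRT18 window, at least 2 by 61.7% of those the length of the KRT5 window, and at least 1 by 74.5% of those the length of the KRT14 window. These shares rank 5 loci and are no test. For KRT19 and KRT14 they hold for the divided windows. They were not redone with both windows counted in full, where KRT14 had 3 peaks.

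**Figure D1:**
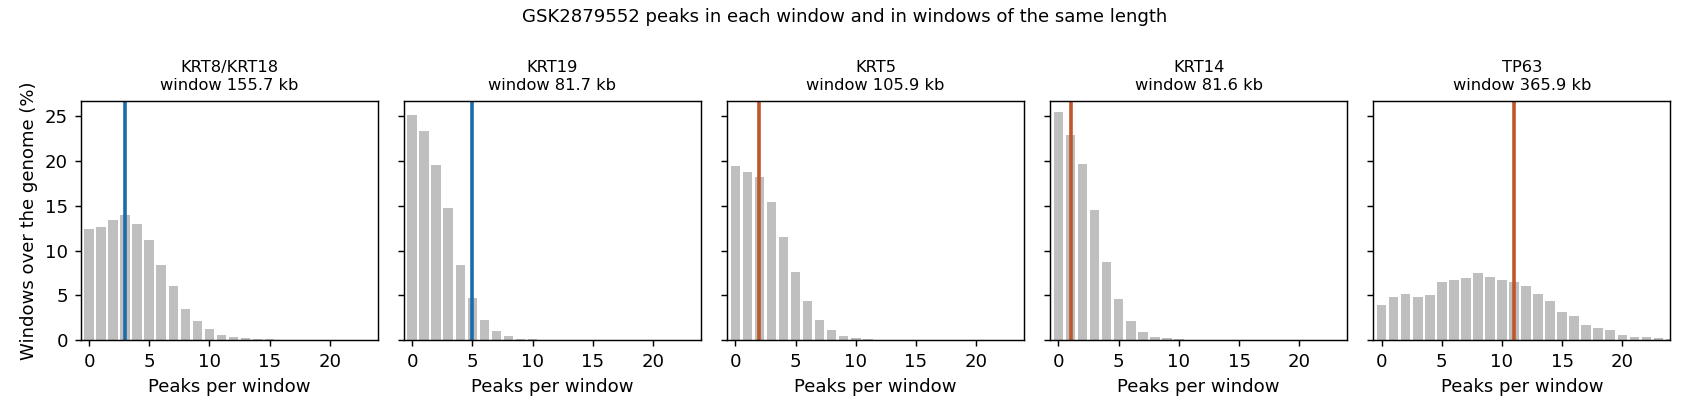
Each panel shows, in grey, the share of genome windows (percent, vertical axis) with a given number of GSK2879552 peaks (horizontal axis), for windows as long as that of the named locus. The coloured line marks the locus itself (blue luminal, orange basal). The line for KRT19 at 5 peaks lies in the upper tail, while KRT8/KRT18 at 3, KRT5 at 2, KRT14 at 1 and TP63 at 11 lie within the bulk.

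At KRT8 and KRT18 (chromosome 12, 53290971 to 53346685), the keratin pair of luminal cells, 3 peaks of moderate strength were called. Fold enrichment is the authors' ratio of tags at the summit to the local background, and pileup is the number of extended tags over the summit, solved from the deposited values. The strongest lay inside the span at 53297143 to 53297546, 6473 bp from its first base, and was enriched 4.58-fold, with 21 tags in its pileup over a local background of 3.81. It was 404 bp wide, wider than 93.4% of the peaks of the list. The second, at 53346533 to 53346690 (fold enrichment 4.22, pileup 15), had its summit 105 bp before the last base of the span. KRT18 is transcribed towards that end, so this peak lay over the 3′ end of KRT18. The third lay 11667 bp beyond the span at 53358263 to 53358439, enriched 3.95-fold at a pileup of 14. No summit lay within 50 kb below the span, on the side of the 3′ end of KRT8.

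KRT19 (chromosome 17, 39679869 to 39684641, minus strand) had the strongest single HOXB13 peak of the 22. That peak lay 21111 bp upstream of the gene start at 39705630 to 39705976. Its fold enrichment of 6.81 was above 92.9% of the list, and its pileup was 27 where the local background was 3.11. It was nearer to KRT19 than to KRT14 and would also lie within 50 kb of KRT14. The same holds for the weaker peak at 39693313 to 39693459, 8705 bp upstream of KRT19, whose fold enrichment was 3.92 and whose pileup was 14.

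Downstream of KRT19 a close pair of peaks lay at 39646281 to 39646714 and 39647587 to 39647834, with summits 1322 bp apart. Their fold enrichments were 5.52 and 5.07, and their pileups were 23 and 21. The fifth peak was the weakest of the locus, at 39679753 to 39679970, enriched 3.69-fold at a pileup of 13. Its summit lay 2 bp inside the 3′ end of KRT19, and the peak crossed that end. Thus 1 peak lay across the 3′ end of KRT18 and 1 across that of KRT19. This position was noticed after the values had been seen, and how often peaks lie across gene ends was not examined.

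KRT5 (chromosome 12, 52908359 to 52914243, minus strand) had 2 peaks, neither of them in the gene. The peak at 52933037 to 52933176 lay 18854 bp upstream of the gene start, enriched 4.22-fold, its pileup of 15 standing on the genome-wide background. It was 140 bp wide, close to the smallest width of 139 bp in the list. The other lay at 52860410 to 52860650, 47821 bp beyond the 3′ end and so just within the limit, enriched 4.17-fold at a pileup of 15. The upstream peak of KRT5 and the peak at the 3′ end of KRT18 had the same pileup and the same background, and hence the same fold enrichment.

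KRT14 (chromosome 17, 39738531 to 39743147, minus strand), the partner of KRT5, had 1 peak. It lay 13631 bp upstream of the gene start at 39756678 to 39756847. Its fold enrichment of 5.80 was above 86.0% of the list, and its pileup of 21 stood on the genome-wide background of 2.79. When a summit was allowed to count for both genes, KRT14 had 3 peaks, the 2 added ones being those upstream of KRT19.

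TP63 (chromosome 3, 189349216 to 189615068, plus strand) had 11 peaks spread along and around the gene, and no strong one. The gene is long and has a start for the full-length (TA) forms and an internal start for the ΔN forms, the latter being the main forms of basal cells. Gene start here means the first base of the gene. Where the internal start lies among the peaks was not examined. Of the 11 peaks, 3 lay before the gene, 7 inside it and 1 after it. The 7 inside came to 26.3 peaks per Mb of gene, close to the 23.7 of the list. Fold enrichments ran from 3.14 to 4.95 with a median of 4.13, and pileups from 13 to 29 with a median of 17.

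The peak nearest to the start of TP63 was the widest of the 22. It lay at 189347416 to 189348074 and was 659 bp wide, wider than 99.5% of the list. Its summit lay 1252 bp upstream of the gene start, and its near edge 1142 bp upstream, so it did not reach the 250 bases before the start. Its fold enrichment of 4.03 and its pileup of 17 were both near the middle of the list, and the local background was 3.46. Its height was thus ordinary and its width was not.

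Inside TP63, the 3 peaks with the highest fold enrichment were at 189415472 to 189415644, 189575371 to 189575580 and 189428482 to 189428748. Their fold enrichments were 4.95, 4.80 and 4.72. The last of them had the highest pileup of all 22 peaks, 29, but over a local background of 5.35, which is 1.92 times the genome-wide one. Its neighbour 2395 bp away, at 189430885 to 189431115, had a pileup of 23 over 5.50 and a fold enrichment of 3.69. This pair was the place of highest local background among the members. From there to the next summit, a stretch of 107 kb inside the gene held no peak, and the peak that ended it was the weakest of the 22 by fold enrichment (3.14, pileup 14). The peak after the gene lay 47257 bp beyond it, just within the limit, with a fold enrichment of 4.13.

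**Figure D2:**
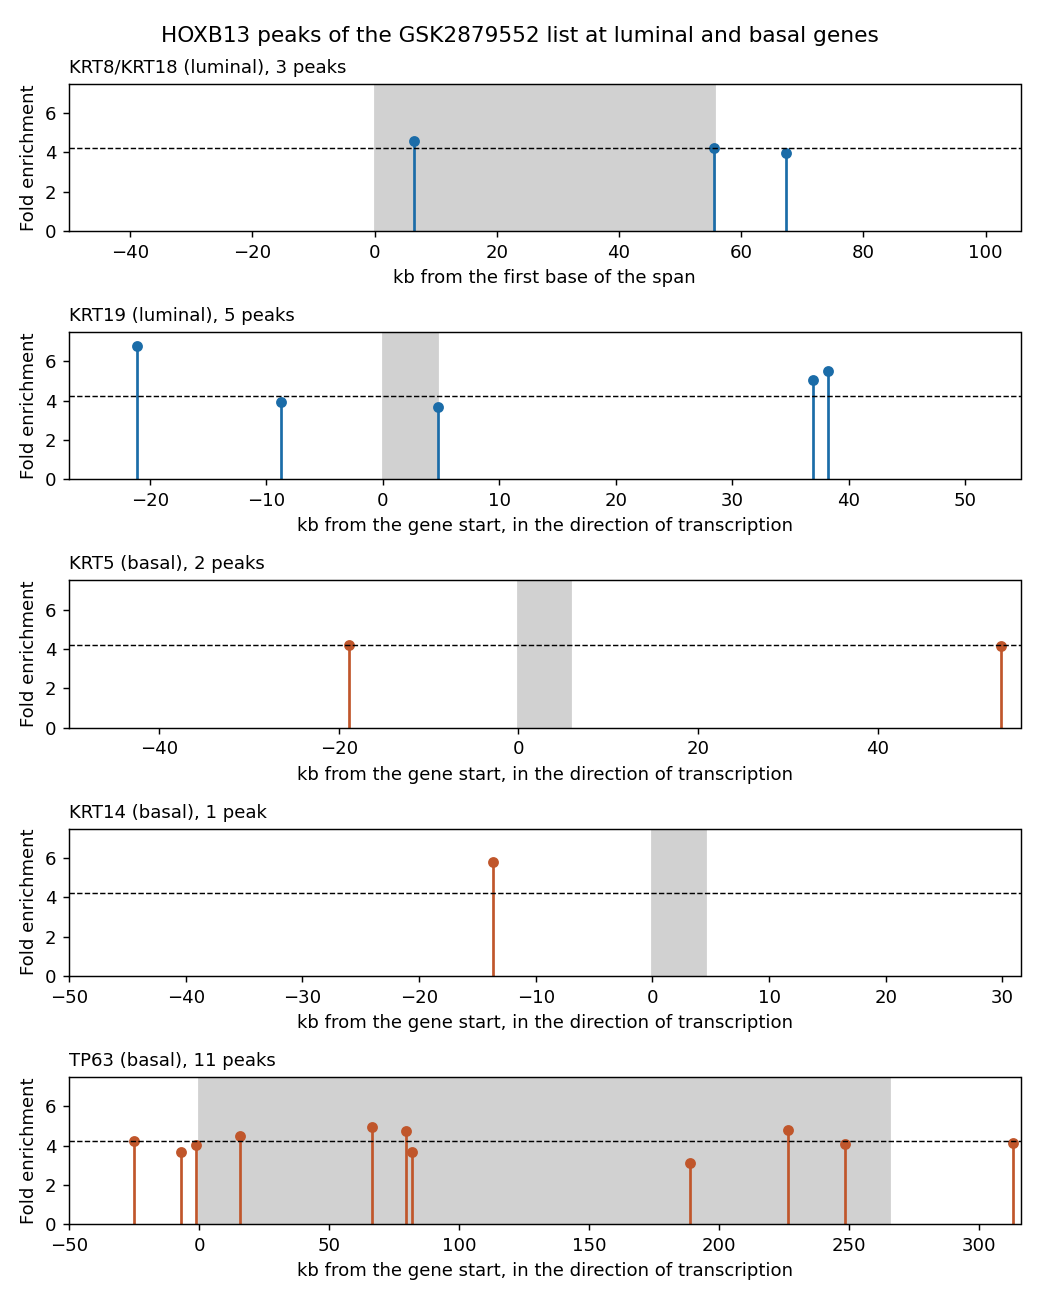
Summits of the 22 peaks of the GSK2879552 list by locus, as distance in kb (horizontal axis) from the gene start in the direction of transcription, or from the first base of the span for KRT8 and KRT18. Line height is fold enrichment, grey marks the gene or span, the axis covers the window of each locus, and the dashed line is the median of the whole list (4.22). Peaks at KRT19 reach 6.81, those of TP63 stay below 5, and 2 luminal peaks stand at the far ends of the KRT8 and KRT18 span and of KRT19.

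As a group the 22 peaks had the strength of ordinary peaks of the list. Their median fold enrichment was 4.22, the same as the median of 4.22 over all 68049 peaks (quartiles 3.69 and 5.02), and 10 of the 22 lay above it. Their median pileup was 16.5 against 18, and 12 of the 22 were wider than the median peak of the list. A fold enrichment of at least 5 was reached by 4 of the 22 (18.2%, exact 95% binomial interval 5.19 to 40.3), against 26.6% of the list. Intervals cover counting error only, and peaks of 1 locus are not independent.

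All 4 of these stronger peaks were on chromosome 17, 3 assigned to KRT19 and 1 to KRT14, within 110 kb of each other. None of the 5 peaks at KRT8, KRT18 and KRT5 on chromosome 12 reached a fold enrichment of 5, the highest being 4.58. None of the 11 at TP63 did either, with a highest value of 4.95. The contrast between chromosomes 17 and 12 holds only within 50 kb. Between 50 and 100 kb, chromosome 12 peaks reached fold enrichments of 7.05 near the KRT8 and KRT18 span and 5.80 near KRT5. A −log10 q-value of at least 5 was reached by 11 of the 22 (50.0%), against 54.8% of the list, and of at least 10 by 1 (4.55%), against 17.6%. That 1 was the upstream peak of KRT19, with 13.4. Another summit within 2500 bp was found for 4 of the 22 (18.2%), the pairs at KRT19 and TP63, against 19.9% of the list.

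**Figure D3:**
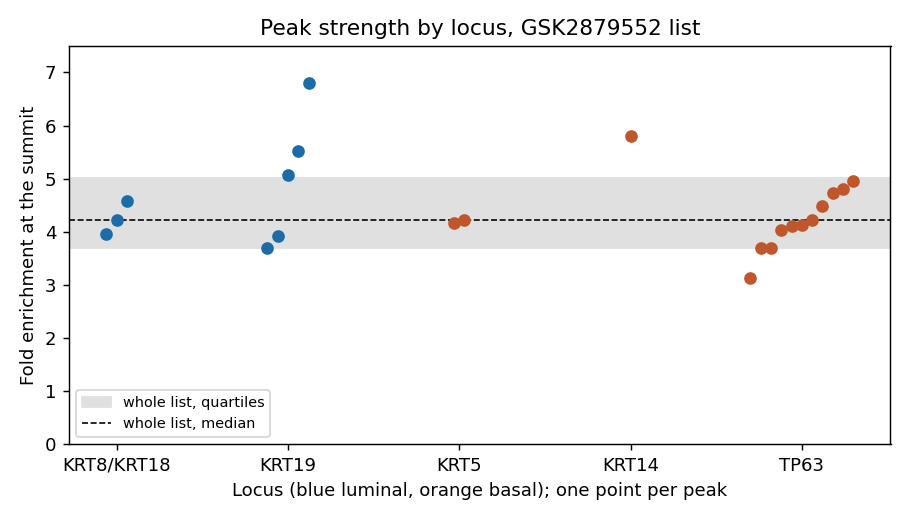
Fold enrichment at the summit (vertical axis) of each member peak, 1 point per peak, by locus. The grey band covers the quartiles of the whole GSK2879552 list (3.69 to 5.02) and the dashed line its median; 4 points lie above the band, 3 at KRT19 and 1 at KRT14, and 2 points of TP63 lie below it, 1 at 3.14 and 1 at 3.69 just under its edge.

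The GSK2879552 list, to which all values of this paragraph belong, had HOXB13 peaks at all luminal and all basal loci. The luminal windows held 3.37 peaks per 100 kb and the basal windows 2.53, a ratio of 1.33 that was not tested. The ratio rested on KRT19: without it the luminal density was 1.93 per 100 kb and the ratio turned to 0.761. Without TP63 the basal density was 1.60 per 100 kb and the ratio was 2.11. Both peaks upstream of KRT19, among them its strongest, also lay within 50 kb of KRT14 and were luminal only by the nearer-gene rule. With both windows counted in full, KRT19 kept 5 peaks and KRT14 had 3. Densities, ratio and medians were not computed that way. Median fold enrichments were 4.40 at luminal genes (8 peaks, 3.69 to 6.81) and 4.19 at basal genes (14 peaks, 3.14 to 5.80), so the ranges overlapped over most of their length. Median pileups were 18 and 16.5.

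The local background also differed between loci. Its median was 1.24 times the genome-wide value at TP63 and 1.11 times at KRT19, while at KRT5 it was 1.01 times, and at KRT14 and the KRT8 and KRT18 span it equalled the genome-wide value. Over the whole list the median was 1.22 times. The local background also varied within loci, reaching 1.36 times at 1 peak of the KRT8 and KRT18 span and 1.97 times at 1 of TP63. The value for KRT14 is that of its 1 peak. Of the 22 peaks, 7 stood on the genome-wide background, 2 of them at TP63. DNA copy number in LNCaP was not examined, and its part in pileups and backgrounds was not tested.

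No member peak of the GSK2879552 list had a counterpart in the vehicle list. The number overlapped by a vehicle peak was 0 of 22, which allows a share of up to 15.4% (upper end of the exact 95% binomial interval), against 4.59% over the whole list. The vehicle list is short: at its density of 1.22 peaks per Mb the 5 windows together would hold 0.966 peaks. A vehicle peak was held by 29.1% of windows the length of the TP63 window, by 14.3% for KRT8 and KRT18, 10.1% for KRT5, 7.96% for KRT19 and 7.95% for KRT14. The absence of vehicle peaks from these loci is thus near what the list shows elsewhere.

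Peaks as low as these seldom had a vehicle partner anywhere. Over the whole GSK2879552 list a vehicle peak overlapped 0.334% of the peaks with a pileup of 10 to 14 (exact 95% interval 0.241 to 0.451), 0.688% at 15 to 19 (0.595 to 0.791) and 2.94% at 20 to 29 (2.70 to 3.19). These classes held 5, 8 and 9 of the member peaks. The genome-wide background was 2.79 tags with GSK2879552 and 0.443 with vehicle, a ratio of 6.31. Scaled by it, the pileups of the 22 peaks came to 2.06 to 4.60, under the lowest pileup of 5 called in the vehicle list. Binding with vehicle at the same fold over background, or lower, was therefore mostly below what could be called at these genes, and a gain with the inhibitor could not be told from no change at this depth. A vehicle site taller than its scaled counterpart, at a pileup of at least 5, could have been listed where its local background was the genome-wide one. A higher local background needs a higher pileup, and with GSK2879552 only 7 of the 22 peaks stood on the genome-wide one. No vehicle site was listed at these genes.

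**Figure D4:**
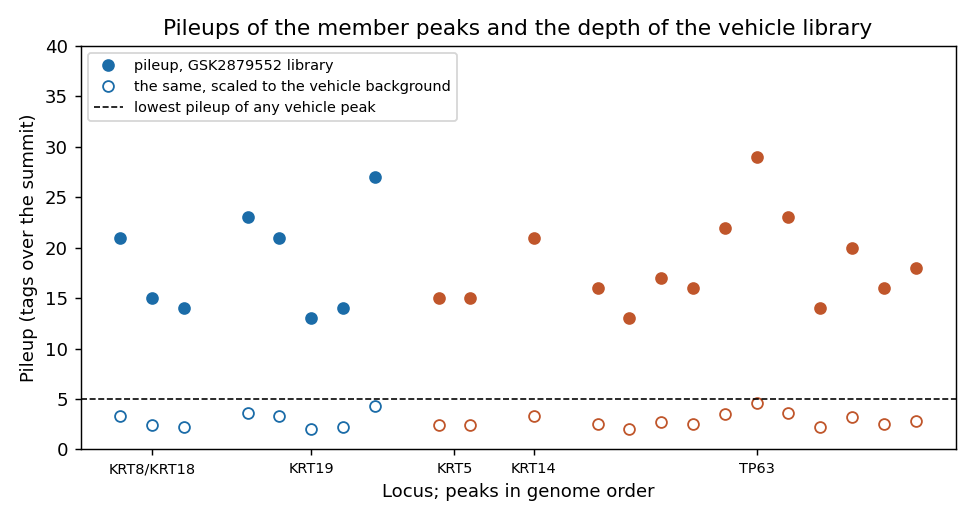
Pileup over the summit (vertical axis, tags) of the 22 member peaks in the GSK2879552 library (filled) and the same values divided by the ratio of genome-wide backgrounds (open), by locus in genome order, blue for luminal and orange for basal genes. All open points lie between 2.06 and 4.60, below the dashed line at 5, the lowest pileup of any vehicle peak.

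The nearest vehicle peak to any of the genes lay 80221 bp beyond the 3′ end of KRT5, outside the limit, at 52828122 to 52828232 on chromosome 12. Its pileup was 6 over 0.540, and its fold enrichment was 4.55. The GSK2879552 peak that it overlapped, at 52828126 to 52828389, reached a pileup of 21 over 2.79 and was enriched 5.80-fold. These fold enrichments do not compare the treatments, since the 1 added to pileup and to background weighs more on the lower vehicle background. Scaled by the ratio of genome-wide backgrounds, a pileup of 21 came to 3.33, under the 6 of the vehicle peak. Whether binding differed at this site was not tested. The peak upstream of KRT14 had the same pileup, background and fold enrichment as this GSK2879552 peak but no vehicle partner. The nearest vehicle peaks lay 143 kb from TP63, 463 kb from the KRT8 and KRT18 span, 1086 kb from KRT14 and 1145 kb from KRT19, all of them overlapped by a GSK2879552 peak. The same vehicle peak on chromosome 12 was the nearest to KRT5 and to the KRT8 and KRT18 span, and the same one on chromosome 17 was the nearest to KRT19 and to KRT14.

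Just outside the limit of 50 kb, GSK2879552 peaks lay 51460 bp beyond the KRT8 and KRT18 span with a fold enrichment of 3.84, 60090 bp beyond KRT5 with 5.46, and 68946 and 70558 bp from TP63, both weaker than the one near KRT5. Just inside it were the peaks at 47821 bp from KRT5 and 47257 bp from TP63, described above. Between 50 and 100 kb below the KRT8 and KRT18 span lay a further 3 peaks, the strongest of them at 53208333 to 53208592, enriched 7.05-fold at a pileup of 29. That peak was stronger than any of the 22 by fold enrichment.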

How the data were processed

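HOXB13 chromatin immunoprecipitation was sequenced in LNCaP cells, libraries being made with a ThruPLEX kit, per the labels' protocols. Per the submitters' processing notes, the tools were MACS2 2.1.2, BWA 0.7.2 and SAMtools 0.1.18 and the build was hg19 (GRCh37). Calling options and any input control: not given in the sources used here. Per peak, the authors deposited a fold enrichment (ratio), a −log10 p-value, a −log10 q-value, a score (the −log10 q-value times 10, rounded down, in 100% of rows) and the summit offset. The largest deposited q-values were 0.0469 and 0.0500. The 1-based summit is the start plus the offset.

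Pileup k and background λ were obtained from the fold enrichment, (k + 1)/(λ + 1), together with the −log10 of the Poisson p-value, giving a whole k within 0.001 for 100% of both lists. The solver, overlap and window routines were tested on simulated data. The commonest λ was taken as genome-wide background, and a peak within 0.005 of it as standing on it. Overlap meant at least 1 bp. Genome windows left out peak-free intervals of at least 2.5 Mb. Shares have exact (Clopper-Pearson) 95% intervals. Of the 68725 and 3722 deposited peaks, those off chromosomes 1 to 22, X and Y were left out. Scripts used Python 3.11.15, numpy 2.4.6, pandas 2.3.3 and scipy 1.17.1.

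The members and lists were chosen with earlier results of these data known. All peaks of a locus are named where there are 8 or fewer, otherwise the 3 of highest fold enrichment and the nearest to the gene start. Other luminal and basal genes and sequences under the peaks had been planned but were not analysed here, since no genome or annotation of hg19 was used. Alternatives covered the window, stricter thresholds, overlap, lists of equal length and the assignment to genes.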

Additional observations from a re-analysis of the deposited data

How the results depend on the processing

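The number of GSK2879552 peaks at the genes, 22, stayed within 1.5 times under windows of 25 and 100 kb (17 and 32), with any base of the peak inside the window (22) and with the KRT19 and KRT14 windows counted in full (24). It was 4 at a fold enrichment of at least 5, 11 at a −log10 q of at least 5, 1 at a −log10 q of at least 10, and 0 when the list was limited to the length of the vehicle list, 3507 peaks by −log10 p. The vehicle number was 0 under each of these except 100 kb, where it was 1, and there the share of GSK2879552 peaks with a vehicle peak was 3.12%. The share was 0 with summits within 100 bp, with 50% mutual overlap, at a fold enrichment of at least 5 and at 25 kb. The median of 4.22 held at 25 and 100 kb, and was 5.91 as pileup over the genome-wide background. That last ratio leaves out the 1 added to both terms of the fold enrichment, so it is not on the same scale. The luminal over basal density of 1.33 was 1.45 at 25 kb, 1.42 at 100 kb, 6.99 at a fold enrichment of at least 5 (3 luminal peaks and 1 basal) and 2.11 without TP63. Without KRT19, an alternative chosen after seeing the data, it was 0.761. This ratio was not computed with the KRT19 and KRT14 windows counted in full, where KRT14 had 3 peaks. The share of vehicle peaks at the genes with a GSK2879552 peak could not be given, as there was no vehicle peak. No paired analysis was possible because each treatment has 1 peak list for both lanes, and lanes could not be left out for the same reason. The comparison of treatments is limited by the single library of each and by depth as read from the backgrounds, since the lowest pileup called with vehicle, 5, exceeds each scaled member pileup.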
